A study of Mus musculus with 4 samples.

Results

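Hspa5, Hsp90b1, Pdia3, Pdia4, Pdia6, Calr, Canx, Dnajb9, Herpud1 and Xbp1 encode chaperones, disulphide isomerases and 2 regulators of protein folding in the endoplasmic reticulum (ER). They were chosen by gene symbol, as all probe sets that the platform annotation assigns to 1 of these 10 genes and to no other. The rule found 22 probe sets among 22626 without controls, and each of the 10 genes had at least 1. Per probe set, 20 of the 22 were bright enough to test, with a mean normalised intensity of at least 100 over the 4 arrays. The 2 left out were second probe sets of Pdia4 and Pdia6, which read below 100 on every array.

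The levels come from mouse bone marrow-derived mast cells, granule-filled cells of the allergic response. Marrow was taken from mice aged 8 to 12 weeks and cultured with interleukin-3 at 5 ng/ml, over 4 to 6 weeks. As recorded for the samples, above 98% of the cells were positive for the receptors Kit and FceRI. Of the 4 cultures, 2 were Pac1-/- and 2 were wild-type (Pac1+/+). Pac1, encoded by Dusp2, is a nuclear phosphatase of MAP kinases; the sources used here give neither the form of the disrupted allele nor the strain. Both genotypes carried IgE against dinitrophenyl, added at 100 ng/ml for 18 h, and were then given antigen (DNP-HSA, 20 ng/ml) for 2 h to crosslink the receptor FceRI, so no resting culture is among the arrays. Each culture was hybridised to 1 Affymetrix mouse 430A array, and the cultures of a genotype, called replicates 1 and 2, were independent per the series' design text. With 2 arrays per genotype an exact permutation test cannot give a p below 0.3333.

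Secreted and membrane proteins enter the ER unfolded. Hspa5 (BiP) and Hsp90b1 (GRP94) hold them there, J proteins such as Dnajb9 direct Hspa5 to its clients, the lectins calreticulin (Calr) and calnexin (Canx) retain glycoproteins, and Pdia3, Pdia4 and Pdia6 make and reshuffle disulphide bonds. When unfolded protein builds up, the sensors Ire1, Perk and Atf6 start the unfolded protein response, in which Ire1 splices Xbp1 mRNA into the form that encodes an active transcription factor, and Herpud1 helps to send misfolded protein to degradation. Mast cells make proteases and receptors that pass through this compartment.

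Genes of the unfolded protein response are known for short promoter elements that several of them have in common. The ER stress response element (ERSE), bound by Atf6 with NF-Y, is CCAAT followed after 9 unspecified bases by CCACG, and the shorter ERSE-II is ATTGG followed after 1 unspecified base by CCACG. RefSeq promoter windows of build GRCm38.p6, from 250 bases before to 50 bases after a start site, were searched on both strands. All 10 genes had a window. ERSE was found for 5 of them, Hspa5, Hsp90b1, Calr, Canx and Pdia6, and in 0.119% of all 32851 windows, or 37 of 27025 genes. Of 59 related ER genes with a window, from the lists described below, 5 had it. ERSE-II was found for Herpud1 alone among the 10, for 1 of the 59 related genes and in 0.0365% of all windows. The stretches that hold these motifs are shown because 6 of the 10 promoters hold 1 of these 2 elements. Each is written 5′ to 3′ on the gene's own strand, with the fixed bases of the motif in capitals; Calr has the element on the opposite strand, and Hsp90b1 has 1 on each strand.
Hspa5, chr2:34772005-34772063, plus strand: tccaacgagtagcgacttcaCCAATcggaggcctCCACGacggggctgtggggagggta
Hsp90b1, chr10:86705513-86705676, minus strand: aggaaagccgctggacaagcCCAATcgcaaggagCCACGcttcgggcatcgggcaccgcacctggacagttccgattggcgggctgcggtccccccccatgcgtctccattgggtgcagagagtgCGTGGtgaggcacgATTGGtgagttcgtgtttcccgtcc
Calr, chr8:84847055-84847113, minus strand: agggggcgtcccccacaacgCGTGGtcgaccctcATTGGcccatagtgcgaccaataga
Canx, chr11:50325780-50325838, minus strand: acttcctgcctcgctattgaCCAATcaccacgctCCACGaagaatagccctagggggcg
Pdia6, chr12:17266471-17266529, plus strand: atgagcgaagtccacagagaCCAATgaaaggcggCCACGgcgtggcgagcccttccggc
Herpud1, chr8:94386357-94386407, plus strand: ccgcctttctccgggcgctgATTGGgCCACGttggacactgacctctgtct
The UPRE core TGACGTGG, a site of spliced Xbp1, was in 0.676% of all windows and in none of the 10. That core was found for 3 of the 59 related genes. A match is a stretch of letters and not a measured binding site, and no match in these windows says nothing about the factor. By their brightest probe sets the 5 genes with an ERSE did not share a direction between the genotypes. None of these differences passed limma's test at an adjusted p under 0.05. Hspa5, Calr and Pdia6 were lower in Pac1-/- cells, while Hsp90b1 and Canx were higher. The log2 difference of Pdia6 was -0.69 ± 2.77 (SE), with both replicate 1 arrays below the floor of 16. The other probe set of Hsp90b1 was lower, at -2.68, and further ones of Canx were at -1.90 and 0.71. With median centring Hspa5 and Calr were above 0 too, at 0.17 and 0.32, but below the median of all genes, which was 0.74. Pdia6 was higher in some fits with 1 array left out, which mix the replicate numbers into the genotype difference.

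Before the genes are taken in turn, the arrays differed in ways that touch them. Replicate number 1 stood apart from number 2: over the 7770 probe sets tested, the numbers held 71.9% of the sum of squares and the genotypes 17.9%. Pac1-/- replicate 2 had the lowest median intensity, 24.5, against 40.6 on Pac1-/- replicate 1, and 49.3 and 48.0 on the wild-type arrays. The 3' to 5' signal ratio of the GAPDH control was 1.36 and 191 on Pac1-/- replicates 1 and 2, against 0.798 and 0.839 in wild-type cells. For beta-actin it was 293 and 54.8, against 109 and 1.58. The GAPDH ratio was above both wild-type values on both Pac1-/- arrays, far above them on replicate 2, while the beta-actin ratio overlapped between the genotypes and was higher on replicate 1 in each. The part of either in the differences below was not tested. Of 13 mast cell marker genes, 12 were tested, and their summed intensity was 61061 and 50589 in Pac1-/- cells, against 57752 and 52173 in wild-type cells. Some single markers varied more. Tpsb2 read 6588 and 476 in Pac1-/- cells, against 5838 and 7259 in wild-type cells. Ms4a2 read 41.9 and 1502, against 143 and 3261, and Cpa3 12388 and 8770, against 12388 and 8968. Kit read 3672 and 3296 on 1 probe set, against 2580 and 1521. Another tested probe set of Kit was lower in Pac1-/- cells in both replicate numbers, at -0.38 and -4.31 on the log2 scale. The macrophage list had 2 of 9 genes tested, and its sum was 5997 and 487 in Pac1-/- cells, against 7920 and 558 in wild-type cells, with Cd68 giving nearly all of it on the replicate 1 arrays and Adgre1 the largest part on the replicate 2 arrays. The neutrophil, basophil and eosinophil, lymphocyte and plasma cell lists had 0 genes tested. The erythroid and megakaryocyte list had 1 of 5 tested, and its sum was 1805 and 586 in Pac1-/- cells, against 2115 and 3268 in wild-type cells. That sum came mainly from Itga2b, an integrin subunit, which read 1721 and 424 in Pac1-/- cells, against 2037 and 3170 in wild-type cells, lower on both Pac1-/- arrays; Klf1, Pf4, Ppbp and Hba-a1 were below 100 on all 4 arrays. The stromal list had 1 of 5 tested, with sums of 410 and 141 in Pac1-/- cells, against 809 and 96.0 in wild-type cells. The part of these lists in the differences below was not tested. In a culture, fewer cells of a type and less RNA per cell cannot be told apart. The 1 probe set of Dusp2 read 109 and 75.5 in Pac1-/- cells, against 167 and 90.7 in wild-type cells; these overlap, and the sources used here do not say whether its probes lie in the deleted part.

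The majority of the ER genes read lower in Pac1-/- cells after quantile normalisation, though not with median centring, and none passed the test. By the brightest probe set of each gene, 7 of 10 were lower in Pac1-/- cells, where 43.9% of all 4998 genes tested were lower. The median log2 difference, Pac1-/- minus wild-type, was -0.59 over the 10 genes, against 0.10 over all genes. Within replicate number 1 this median was -0.21 and within number 2 it was -0.87, where all genes had 0.06 and 0.18. Without Pac1-/- replicate 2 it was -0.37 and without wild-type replicate 2 it was -0.38, where all genes had 0.13 and 0.19. The value without wild-type replicate 2 covers 9 of the 10 genes. The brightest probe set of Herpud1, lower in the main fit, was bright enough to test only through that array. Both Pac1-/- arrays lay below both wild-type arrays for Hspa5, Pdia3, Pdia4, Calr and Xbp1, 5 of 10, against 11.5% of all genes, and above both for Hsp90b1 and Dnajb9, 2 of 10, against 26.1%. With each array centred on its median, a scaling that moved the median of all genes to 0.74, the median of the 10 was 0.17 and thus still below that of all genes.

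By probe set, 0 of the 20 passed limma's test at an adjusted p under 0.05, as did 0% of all 7770. At an unadjusted p under 0.05 there were 2, both lower in Pac1-/- cells, 1 of Pdia4 and 1 of Canx, where 1.13% of all probe sets were lower at that level and 3.38% passed in either direction. The lowest adjusted p of any of the 20 was 0.866. The fitted difference was below 0 for 16 of 20 probe sets, against 47.2% of all. Among the 16, Hsp90b1 1438040_a_at and Herpud1 1435626_a_at were bright enough to test only through wild-type replicate 2. The intensity minimum thus favoured a value below 0 for them. With median centring the fitted difference was below 0 for 7 of 20, where the median over all probe sets was 0.69. Without Pac1-/- replicate 2, the array with the high GAPDH ratio, it was below 0 for 14 of 20. Without wild-type replicate 2 it was below 0 for 10 of 18, with those Hsp90b1 and Herpud1 probe sets too dim to test. The median over all was 0.09 and 0.14 in those 2 fits. The share of all below 0 was not counted in these alternative fits, so 47.2% is not their background. Within replicate number 1 alone 12 of 20 were lower, against 49% of all, and within number 2 alone 14 of 20, against 44%. No sum over the list has a test here, because the genes were chosen with results of these arrays known.

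**Figure D1:**
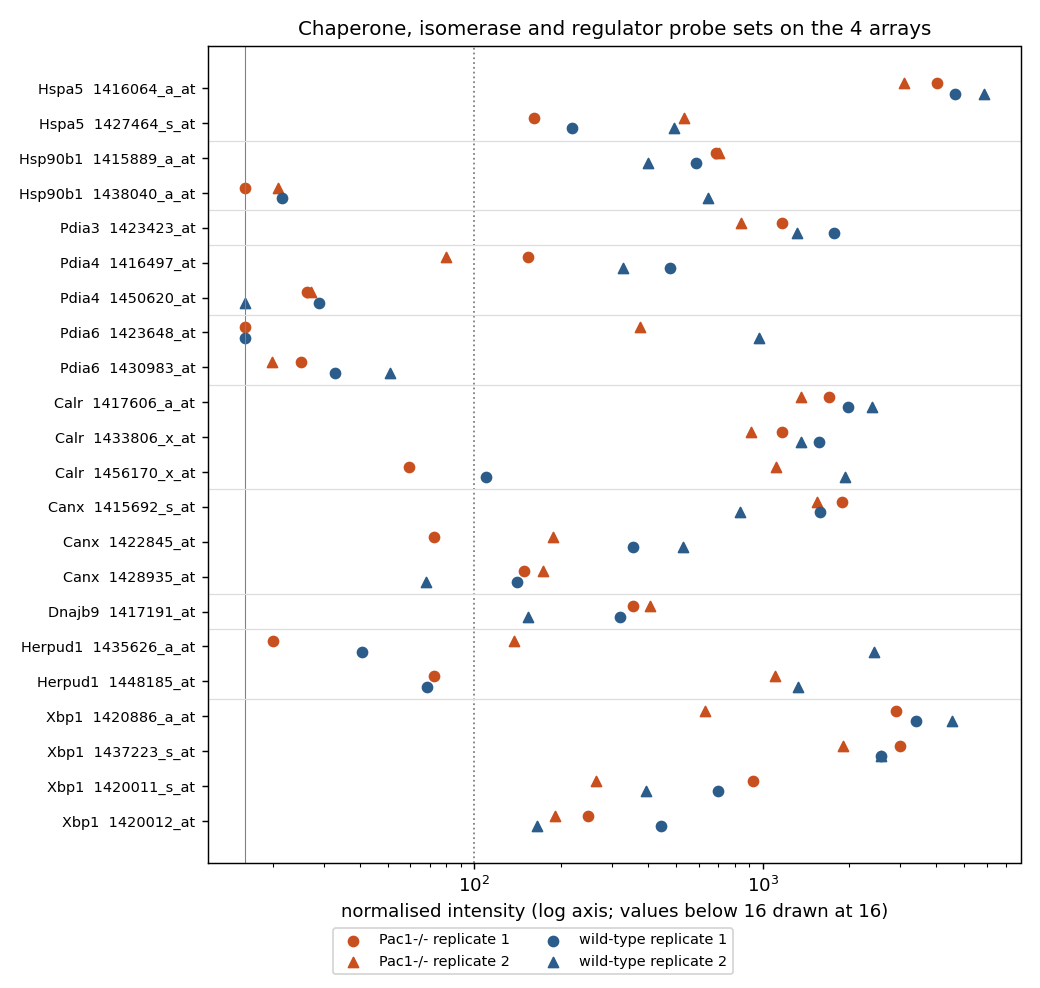
Normalised intensity of the 22 probe sets on a log axis, Pac1-/- arrays in orange and wild-type arrays in blue, circles for replicate 1 and triangles for replicate 2; the solid line marks the floor of 16 and the dotted line 100. The 2 Pac1-/- points of Pdia4 (1416497_at) lie left of both wild-type points, while Pdia6 (1423648_at), Herpud1 and Calr (1456170_x_at) split by replicate number.

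The first group is the Hsp70 and Hsp90 chaperones with their J protein. Hspa5, the main Hsp70 of the ER and its most used stress marker, read 4036 and 3102 on probe set 1416064_a_at in Pac1-/- replicates 1 and 2, against 4633 and 5838 in wild-type replicates 1 and 2. Both Pac1-/- arrays were below both wild-type arrays, and the 2 genotypes were closer in replicate 1 than in replicate 2. On the log2 scale Pac1-/- cells averaged 11.79 ± 0.27 and wild-type cells 12.34 ± 0.24 (SD, n = 2 each). The difference was -0.56 ± 0.39 (SE; 95% confidence interval -1.67 to 0.56; limma adjusted p = 0.866), or 0.17 with median centring. In replicate 1 it was -0.20 and in replicate 2 it was -0.91, and without Pac1-/- replicate 2 it was -0.34. The second Hspa5 probe set, 1427464_s_at, read 161 and 535 in Pac1-/- cells, against 219 and 493 in wild-type cells. It followed the replicate number, which held 95.3% of its sum of squares, and its genotypes overlapped.

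Hsp90b1, the Hsp90 of the ER that folds integrins and Toll-like receptors, had 2 probe sets that disagreed. On 1415889_a_at it read 689 and 704 in Pac1-/- cells, against 587 and 400 in wild-type cells. There was no overlap, Pac1-/- above wild-type, with a difference of 0.52 ± 0.40 (limma adjusted p = 0.866), 0.23 in replicate 1 and 0.81 in replicate 2. Without wild-type replicate 2 it was 0.25. On 1438040_a_at it read 1.85 and 20.9 in Pac1-/- cells, against 21.5 and 644 in wild-type cells. Here 1 wild-type array carried the signal and the other 3 were near or under the floor of 16, so the fitted difference of -2.68 ± 1.84 depends on that floor. It was -1.67 with a floor of 64, and without wild-type replicate 2 the probe set was too dim to test.

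Dnajb9, a J protein that is a target of spliced Xbp1 and restrains Ire1, read 355 and 407 on its 1 probe set in Pac1-/- cells, against 320 and 154 in wild-type cells. The Pac1-/- arrays were above both wild-type arrays, though by little in replicate 1. The difference was 0.78 ± 0.52 (SE; interval -0.72 to 2.27; limma adjusted p = 0.866), 0.15 in replicate 1 and 1.40 in replicate 2. Without wild-type replicate 2 it was 0.25. It stood on the other side of 0 from Hspa5, its Hsp70 partner. With median centring both were above 0, at 1.41 and 0.17, where the median of all genes was 0.74. Dnajb9 was then above that median and Hspa5 below it, and the contrast was not tested.

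The lectin chaperones bind glycoproteins that carry a single glucose, calreticulin in the lumen and calnexin in the membrane. Calr read 1699 and 1355 on 1417606_a_at in Pac1-/- cells, against 1977 and 2403 in wild-type cells, a difference of -0.52 ± 0.38 (limma adjusted p = 0.866). A second probe set, 1433806_x_at, gave 1165 and 911 in Pac1-/- cells, against 1563 and 1356 in wild-type cells, and a difference of -0.50 ± 0.37. On both of these the Pac1-/- arrays lay below both wild-type arrays, and both differences were above 0 with median centring, at 0.32 and 0.28. The third, 1456170_x_at, read 59.5 and 1110 in Pac1-/- cells, against 109 and 1935 in wild-type cells. It was lower in Pac1-/- cells in both replicate numbers, at -0.88 and -0.80, while the numbers held 96.1% of its sum of squares. Probe sets that end in _x_at hold probes that can also bind other transcripts.

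Canx had 3 probe sets that disagreed. On 1422845_at it read 72.2 and 187 in Pac1-/- cells, against 355 and 529 in wild-type cells. The Pac1-/- arrays were below both wild-type arrays, with a difference of -1.90 ± 0.65 (SE; interval -3.75 to -0.05; limma adjusted p = 0.866, unadjusted 0.0466), -2.30 in replicate 1 and -1.50 in replicate 2. On 1415692_s_at, its brightest, it read 1884 and 1547 in Pac1-/- cells, against 1580 and 837 in wild-type cells, a difference of 0.57 ± 0.49 with overlapping genotypes. On 1428935_at it read 149 and 172 in Pac1-/- cells, against 140 and 68.2 in wild-type cells, a difference of 0.71 ± 0.52. These signs held under all of the scalings tried, but without wild-type replicate 2 the values of 1415692_s_at and 1428935_at were 0.11 and 0.20. Without Pac1-/- replicate 1 that of 1422845_at was -1.24. Such disagreement was not peculiar to Canx and Hsp90b1: of 1468 genes with 2 or more tested probe sets, 57% had differences of both signs, as had 2 of the 6 such genes here.

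**Figure D2:**
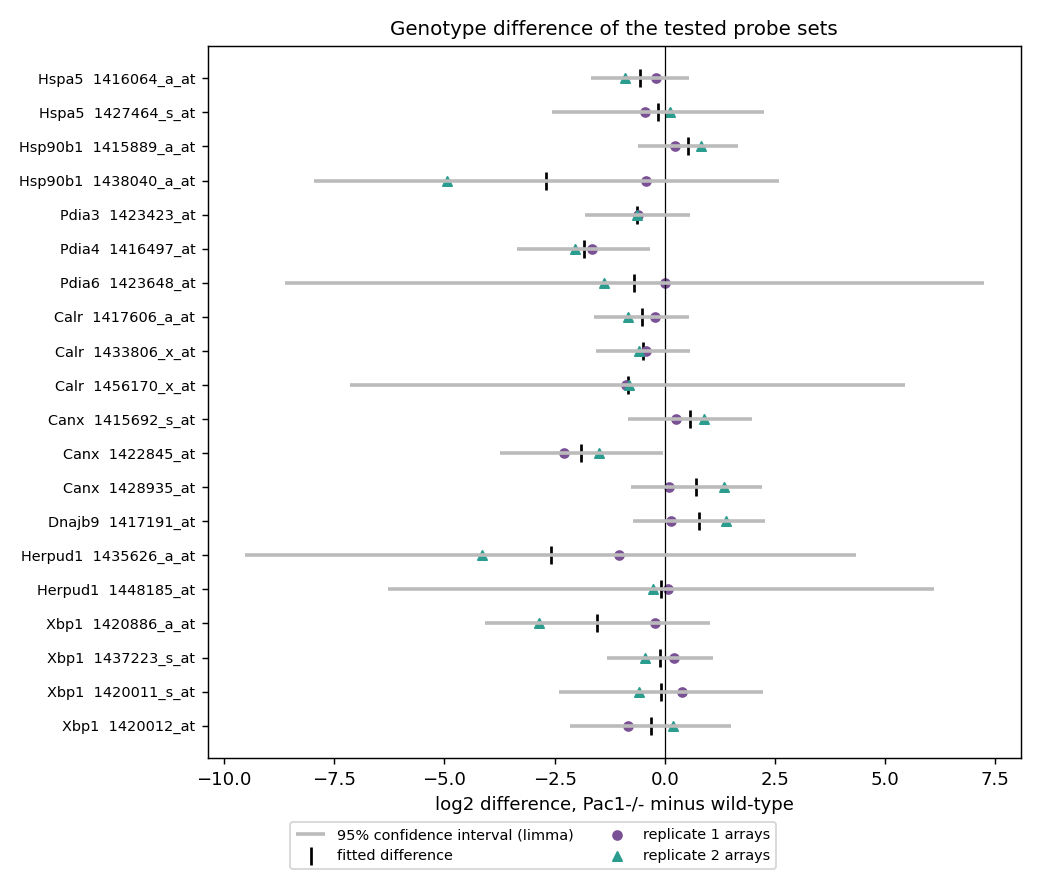
Log2 difference, Pac1-/- minus wild-type, of the 20 tested probe sets, as limma's estimate (tick) with its 95% confidence interval (grey bar), and between the replicate 1 arrays (circles) and the replicate 2 arrays (triangles). Only the intervals of Pdia4 (-3.34 to -0.34) and of Canx 1422845_at (-3.75 to -0.05) leave out 0, both before adjustment.

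The disulphide isomerases read lower in Pac1-/- cells in the fit over all 4 arrays, but not under every alternative, and none passed the adjusted test. Pdia3 was above 0 with median centring, at 0.16, where the median of all genes was 0.74. Pdia6 changed sign without Pac1-/- replicate 1 and without wild-type replicate 2, fits that mix the replicate numbers into the genotype difference. Pdia4 (ERp72), an isomerase with 3 thioredoxin-like active sites, read 153 and 79.9 on 1416497_at in Pac1-/- cells, against 479 and 328 in wild-type cells. Both Pac1-/- arrays were below both wild-type arrays, and the gap in either replicate number was wider than the gap within either genotype. On the log2 scale Pac1-/- cells averaged 6.79 ± 0.66 and wild-type cells 8.63 ± 0.39 (SD, n = 2 each). The difference was -1.84 ± 0.52 (SE; interval -3.34 to -0.34; limma adjusted p = 0.866, unadjusted 0.0279), -1.65 in replicate 1 and -2.03 in replicate 2. The genotypes held 85.2% of its sum of squares, the highest share of the 20 probe sets. It ranked 103 of 7770 by unadjusted p and kept its sign with each array left out, between -2.34 and -1.28. Its second probe set, 1450620_at, read between 14.7 and 28.9 on the 4 arrays and was not tested.

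Pdia3 (ERp57), the isomerase that works with calreticulin and calnexin, read 1168 and 844 on its 1 probe set in Pac1-/- cells, against 1770 and 1314 in wild-type cells. Again the Pac1-/- arrays were below both wild-type arrays, and the 2 replicate numbers gave nearly the same difference, -0.60 and -0.64. The fitted value was -0.62 ± 0.41 (SE; interval -1.80 to 0.56; limma adjusted p = 0.866), 0.16 with median centring and -0.38 without Pac1-/- replicate 2.

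Pdia6 (P5), an isomerase found with Hspa5 in chaperone complexes, read 3.20 and 374 on 1423648_at in Pac1-/- cells, against 9.95 and 975 in wild-type cells. Both replicate 1 arrays were below the floor of 16, so only replicate 2 bears on the genotype, with a difference of -1.38. The fitted value was -0.69 ± 2.77, or -0.01 with median centring. It was 1.56 without Pac1-/- replicate 1 and 2.28 without wild-type replicate 2. The replicate numbers held 96.6% of the sum of squares, and a fit that lacks an array mixes them into the genotype difference. The second probe set, 1430983_at, read 25.0 and 19.8 in Pac1-/- cells, against 32.9 and 50.9 in wild-type cells, too dim to test.

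**Figure D3:**
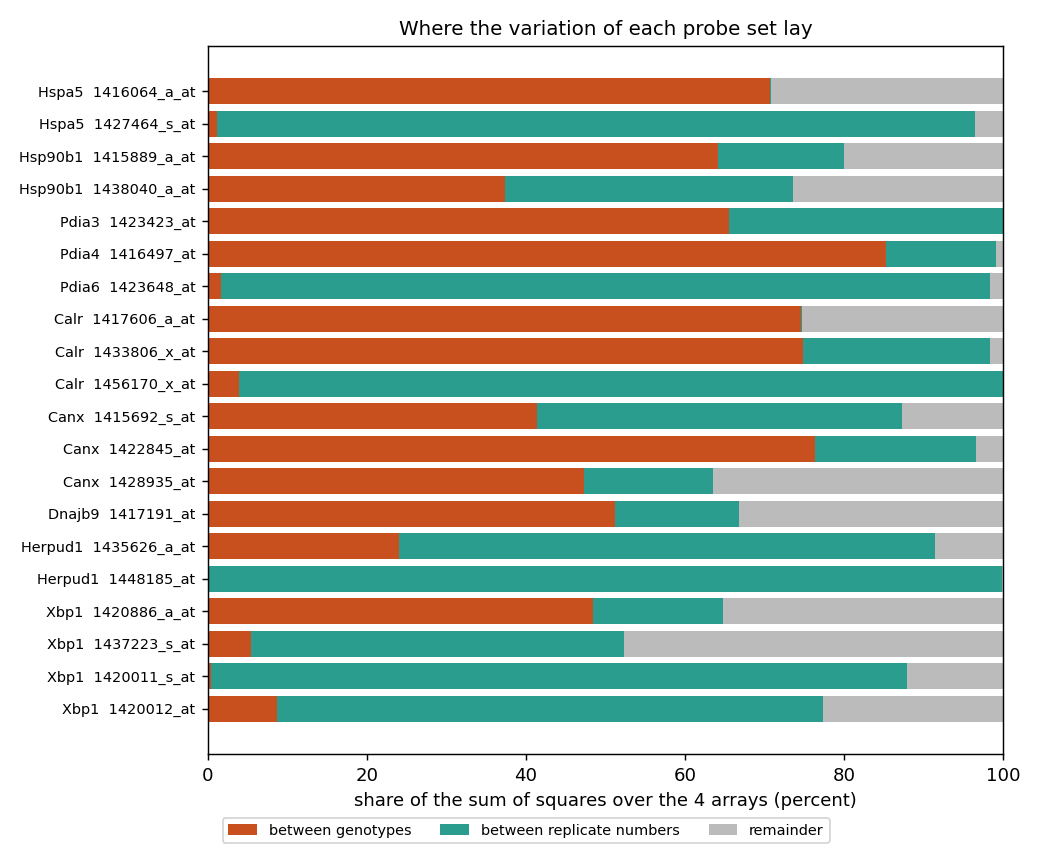
Share of each tested probe set's sum of squares over the 4 arrays that lay between the genotypes (orange), between the replicate numbers (green) and in the remainder (grey), in percent. The genotype share is 85.2% for Pdia4 and 0.0485% for Herpud1 1448185_at, whose replicate share is 99.8%.

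The degradation factor and the transcription factor come last. Herpud1, a membrane protein that helps to assemble the machinery of ER-associated degradation and is strongly induced by ER stress, read 20.0 and 138 on 1435626_a_at in Pac1-/- cells, against 40.9 and 2438 in wild-type cells. On 1448185_at it read 72.4 and 1102 in Pac1-/- cells, against 68.3 and 1323 in wild-type cells. Both probe sets were brighter on the replicate 2 array than on the replicate 1 array of either genotype, and the genotypes overlapped on both. The differences were -2.59 ± 2.42 and -0.09 ± 2.16 (limma adjusted p = 0.876 and 0.996). Without wild-type replicate 2, 1435626_a_at was too dim to test. On Pac1-/- replicate 2 the 2 probe sets gave 138 and 1102, a gap that wild-type replicate 2, with 2438 and 1323, did not have. The sources used here do not place the probes along the transcript.

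Replicate 2 was at least 4 times as bright as replicate 1 in both genotypes for 4 of the 20 probe sets, 2 of Herpud1, 1 of Pdia6 and 1 of Calr, against 5.61% of all probe sets. For 0 of 20 was it the other way round, against 5.88%. The replicate numbers held the largest part of the sum of squares in 8 of 20, against 41.4% of all, and the genotypes in 11 of 20, against 37.8%.

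Xbp1, the transcription factor that Ire1 activates by splicing, had 4 probe sets. On 1420886_a_at, its brightest, it read 2906 and 632 in Pac1-/- cells, against 3400 and 4540 in wild-type cells. Both Pac1-/- arrays were below both wild-type arrays, but Pac1-/- replicate 2 was far below the other 3. The difference was -1.54 ± 0.89 (SE; interval -4.09 to 1.02; limma adjusted p = 0.866), -0.23 in replicate 1 and -2.84 in replicate 2, and it was -0.42 without Pac1-/- replicate 2. On 1437223_s_at Xbp1 read 3002 and 1898 in Pac1-/- cells, against 2577 and 2583 in wild-type cells, with overlap and a difference of -0.11 ± 0.42. The other 2 had overlapping genotypes too, with differences of -0.09 ± 0.81 for 1420011_s_at and -0.32 ± 0.64 for 1420012_at. None of the probe sets is described as separating spliced from unspliced Xbp1 mRNA, so the activity of the factor was not measured.

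**Figure D4:**
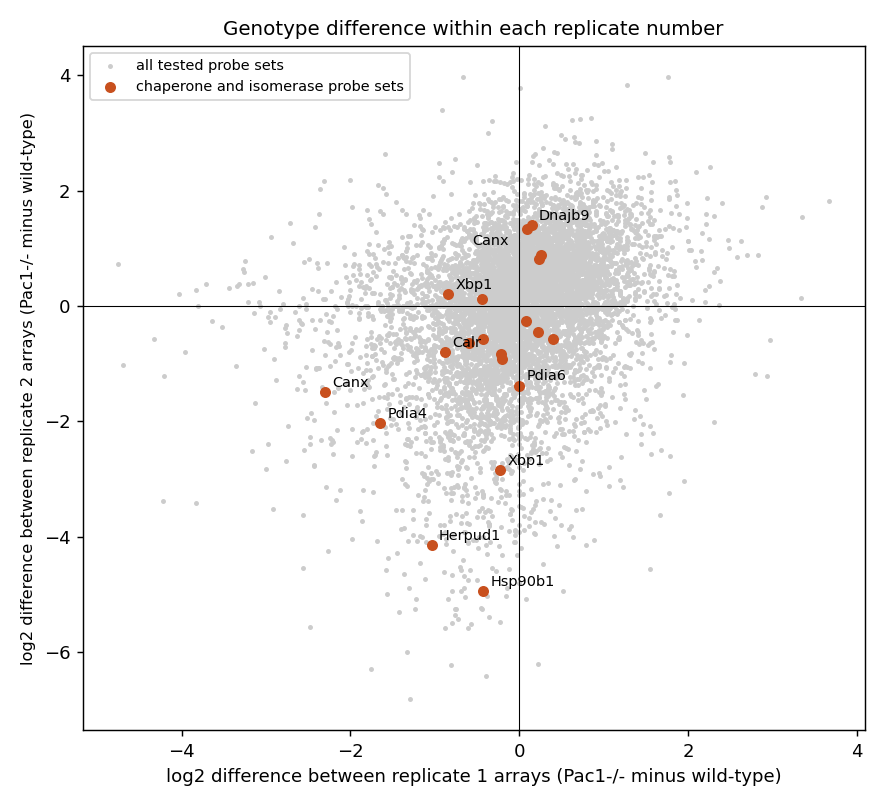
Log2 difference, Pac1-/- minus wild-type, between the replicate 1 arrays (horizontal) and between the replicate 2 arrays (vertical), for all 7770 tested probe sets (grey) and the 20 ER chaperone and isomerase probe sets (orange). Of the 20, 10 lie below 0 in both replicate numbers, against 27.3% of all, and 4 lie above 0 in both, against 34%.

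The genes around them in the same pathway lay on either side of 0 in similar numbers. Of 72 related ER genes listed by function, 67 had a probe set of their own and 60 were tested; 32 had a fitted difference below 0 and 28 above, and the median was -0.10 on the log2 scale against 0.10 over all genes. By the brightest probe set of each gene, none passed limma's test at an adjusted p under 0.05. None passed at an unadjusted p under 0.05 either, where 2.92% of all 4998 genes did. That median changed sign with the scaling and is not read as a direction.

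Among 24 folding cofactors and oxidoreductases, 12 were lower and 12 higher, with a median of -0.03. Those with the lowest p were Sil1 (0.65 ± 0.37, SE), the nucleotide exchange factor of Hspa5, the thioredoxin-related Tmx2 (0.61 ± 0.35), and both subunits of glucosidase II, Prkcsh (-0.90 ± 0.59) and Ganab (-1.15 ± 0.80). Glucosidase II trims the glucose that makes glycoproteins ligands of calnexin and calreticulin. Prkcsh read 306 and 124 in Pac1-/- cells, against 331 and 399 in wild-type cells, and Ganab 160 and 40.9, against 173 and 186. In both the gap came mainly from Pac1-/- replicate 2.

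In ER-associated degradation, 7 of 12 were lower and 5 higher, with a median of -0.25. Herpud2, a homologue of Herpud1, had a difference of 1.50 ± 0.53 (SE; limma adjusted p = 0.866, unadjusted 0.0508), with 266 and 459 in Pac1-/- cells, against 161 and 95.5 in wild-type cells. Its second probe set, 1415982_at, went the other way, at -0.58 ± 0.36, with 116 and 92.6 in Pac1-/- cells, against 158 and 152 in wild-type cells. The segregase Vcp was at -0.90 ± 0.53 and the ubiquitin-conjugating enzymes Ube2g2 and Ube2j1 at -0.80 ± 0.47 and 0.44 ± 0.37.

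Of the sensors and their partners, 2 of 5 tested were lower and 3 higher, with a median of 0.27. Atf6 read 237 and 366 in Pac1-/- cells, against 146 and 167 in wild-type cells, a difference of 0.92 ± 0.42 (SE), and Eif2ak3, which encodes Perk, was at 0.50 ± 0.39. In both, the Pac1-/- arrays lay above both wild-type arrays. The stress factor Ddit3 was at -0.61 ± 0.55 and the Atf6 protease Mbtps1 at 0.27 ± 0.41. Ern1, which encodes Ire1, read below 100 on all 4 arrays and was not tested.

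Of the translocation and glycosylation genes, 11 of 19 were lower and 8 higher, with a median of -0.09. The translocon-associated Ssr2 was at -1.43 ± 0.64 (SE), the translocation factor Sec62 at 0.67 ± 0.35, the oligosaccharyltransferase subunit Stt3a at -0.57 ± 0.34 and the channel subunit Sec61a1 at 0.48 ± 0.37. Each of these 4 had groups that did not overlap, as had 7 of the 19, 3 lower and 4 higher, near the 11.5% and 26.1% of all genes. Of the 16 related genes named by lowest p, 6 had 2 or more tested probe sets, and in 4 of these the signs disagreed. The others of Sec61a1 lay between -3.37 and 0.33, with 4 of its 6 below 0. Of these, 1434986_a_at was at -1.44 ± 0.50 (SE, limma adjusted p = 0.866, unadjusted 0.0497), with both Pac1-/- arrays below both wild-type arrays. The second probe set of Sec62 was at -0.90 ± 0.89 and that of Stt3a at 0.66 ± 0.42.

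**Figure D5:**
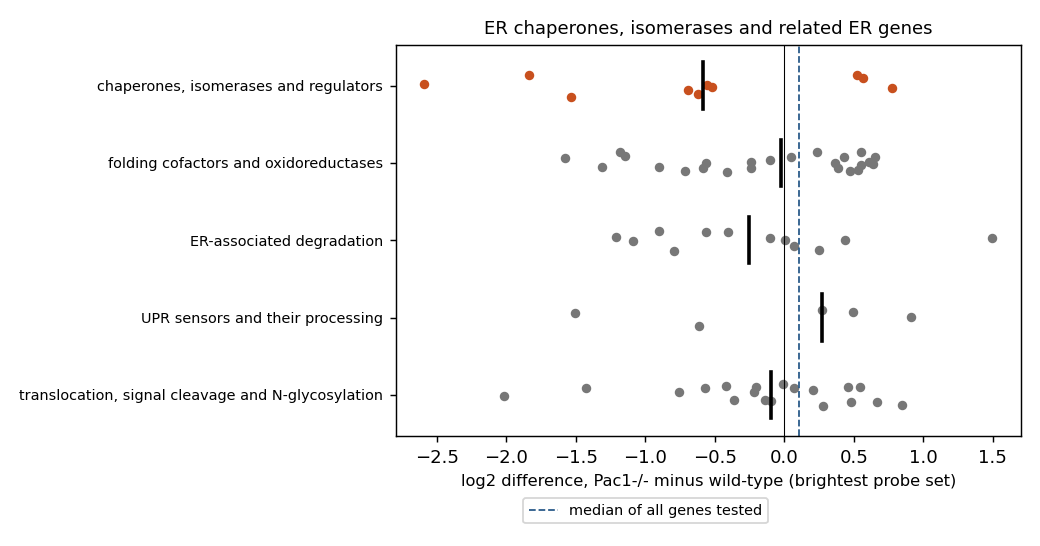
Log2 difference, Pac1-/- minus wild-type, by the brightest probe set of each tested gene (points), for the 10 ER chaperone, isomerase and regulator genes (orange) and 4 lists of related genes (grey), with the median of each list (black bar) and of all genes tested (dashed line, 0.10). The median of the 10 is -0.59, and those of the lists lie between -0.25 and 0.27.

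The nearest profiles were then looked up among the brightest tested probe sets of other genes, as the root-mean-square distance between log2 values centred on each gene's mean over the 4 arrays. Nearest to the mean profile of the 10 genes, of 4988 others, was Dnajb11 at a distance of 0.03 log2 units. Dnajb11 (ERdj3) is a J protein of the ER lumen that works with Hspa5, and it read 440 and 547 in Pac1-/- cells, against 533 and 1018 in wild-type cells. Its promoter window holds ERSE-II, as that of Herpud1 does, and Herpud1 itself lay 2.19 from the mean profile. The part of the element in the profile was not tested. Slc6a9, Elmo1, Hdgf and Arhgdib followed, at distances from 0.07 to 0.10. The mean profile hides a spread, since the 10 genes lay between 0.32 (Hspa5) and 2.32 (Pdia6) from it.

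Nearest to Hspa5, of 4997 others, was Calr at a distance of 0.03. On these brightest probe sets both were highest on wild-type replicate 2 and lowest on Pac1-/- replicate 2. Their other probe sets differed. Hspa5 1427464_s_at was highest on Pac1-/- replicate 2 and Calr 1433806_x_at on wild-type replicate 1, while Calr 1456170_x_at was lowest on Pac1-/- replicate 1. Dcxr, Tfip11, Cnppd1 and Rpsa came next, at 0.04 to 0.05. With 4 arrays many genes can share a profile by the difference between arrays alone, so likeness is given as a distance with no test.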

How the data were processed

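There were 4 cultures, each on 1 Affymetrix mouse 430A array. Per the labels' protocols, 500 to 1000 ng of total RNA was amplified and labelled as cRNA. The authors deposited an intensity for each probe set, on a linear scale. Per the submitters' processing notes MAS5 was used, and the arrays had trimmed means between 150.06 and 150.08, so they had been scaled alike. RMA values, named in the series' design text, were not used here.

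After 64 controls were left out, the 4 arrays were quantile normalised, a floor of 16 was set and values were turned to log2. Probe sets with a mean of at least 100 were tested with limma 3.58.1 in R 4.3.3 (lmFit and eBayes with genotype alone in the model, two-sided tests, 2 residual and 1.71 prior degrees of freedom, Benjamini-Hochberg over 7770 probe sets). P-values rest on 2 cultures per genotype. Gene names come from the annotation of 20380 probe sets with 1 symbol. The fit was tested on simulated data. The number of arrays limits precision.

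The 10 genes, the lists and the alternatives were chosen with earlier results of these data known. Named genes are the 10, up to 4 per related list with the lowest p, the 5 nearest profiles and Dusp2. Ganab, Prkcsh and the rest follow this rule. Ern1, Cd68, Adgre1, Itga2b, Cpa3, Tpsb2, Ms4a2, Kit and the dim erythroid markers were added after values were seen. So were further probe sets of named genes and the GAPDH and beta-actin controls. Alternatives were the deposited values, median centring, no minimum and one of 200, a floor of 64, an intensity trend, the replicate number as a block, each array left out, and the mean of a gene's probe sets.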

Additional observations from a re-analysis of the deposited data

How the results depend on the processing

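No probe set of the 10 genes passed limma's adjusted p under any alternative, and the lowest adjusted p was 0.377. The 2 past the unadjusted test became 0 with median centring, 1 with no intensity minimum and 4 with the replicate number as a block, and lay between 0 and 2 with an array left out. The labels do not say that a number marks a shared batch, and 2 pairs cannot settle it, although same-numbered arrays deviated together (r = 0.751 across probe sets, which are not independent); over all probe sets the block gave an unadjusted count of 899, against 263 without it, and an adjusted count of 0 in both. The count over all probe sets was 1762 with no minimum, 110 with a minimum of 200, and between 87 and 380 with an array left out.

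The median log2 difference of the 10 genes was 0.17 with median centring, where that of all genes was 0.74, and between -0.73 and -0.37 with an array left out; relative to all genes it was between -0.97 and -0.50 over the alternatives. That of the related genes was 0.0048 on the values as deposited, 0.65 with median centring, -0.0011 with a floor of 64, and between -0.036 and 0.25 with an array left out. A fit that lacks an array mixes the contrast of replicate numbers into that of the genotypes.

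With median centring 9 of the 20 probe sets changed sign: Hspa5 1416064_a_at (0.17) and 1427464_s_at (0.58), Pdia3 (0.16), Calr 1417606_a_at (0.32) and 1433806_x_at (0.28), Herpud1 1448185_at (0.63), and Xbp1 1437223_s_at (0.68), 1420011_s_at (0.51) and 1420012_at (0.24). On the deposited values Xbp1 1437223_s_at (0.057) and Herpud1 1448185_at (0.0046) did. With an array left out, values spanned 0 for Hspa5 1427464_s_at (-0.95 to 0.72), Pdia6 (-3.66 to 2.28), Calr 1456170_x_at (-2.97 to 1.30), Herpud1 1448185_at (-2.28 to 2.09), and Xbp1 1437223_s_at (-0.44 to 0.21), 1420011_s_at (-1.02 to 0.79) and 1420012_at (-1.05 to 0.41). Pdia4, Dnajb9, Xbp1 1420886_a_at and every probe set of Canx kept their sign under every alternative that tested them, as did both of Hsp90b1 and Herpud1 1435626_a_at.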
